A study of Mus musculus with 24 samples.

Results

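The early growth response (Egr) genes Egr1, Egr2, Egr3 and Egr4 and the genes of their corepressors, Nab1 and Nab2, were examined in the prefrontal cortex (PFC) and nucleus accumbens (NAc) of mice under chronic jet lag (CJL). They were taken by gene symbol, 6 of the 48526 Ensembl genes in the files, and all 6 passed the filter on low values in both regions, which required 1 FPKM or more (fragments scaled for library depth and transcript length) in 3 or more libraries. The family was selected on the PFC levels of Egr3, so these levels are described here without a test, and all comparisons of the other 5 genes, and of Egr3 within NAc, were tested. The animals were male wildtype C57BL/6J mice, 8 weeks old when obtained and entrained for 2 weeks to 12 h of light and 12 h of dark. In CJL mice the light cycle was then advanced by 6 h every 2 days, whereas Ctrl mice kept the unshifted cycle. Both regions were dissected on Day 10, either at ZT13, 1 h after lights off, or at ZT1, 1 h after lights on. Each of the 8 combinations of region, time and lighting had 3 libraries from 3 mice, and each mouse gave both regions.

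In the mm10 assembly, Egr1 lies on chromosome 18 from 34859823 to 34864984, Egr2 on chromosome 10 from 67535475 to 67542188, Egr3 on chromosome 14 from 70077445 to 70080157 and Egr4 on chromosome 6 from 85511121 to 85513589. Nab1 lies on chromosome 1 from 52457294 to 52500679 and Nab2 on chromosome 10 from 127660918 to 127668568. All are protein coding. Of the 6, Egr3 alone had a span in the files that differs from that of the GENCODE M21 annotation, and an effect of this on its FPKM was not tested.

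Egr proteins are zinc finger transcription factors that bind GC-rich DNA. In neurons their genes belong to the immediate early genes, which synaptic activity, growth factors and stress switch on through the ERK kinase pathway, serum response factor (SRF) and CREB. Egr1 is widely used as a marker of recently active neurons, Egr2 is also required for myelination in peripheral nerve and for hindbrain patterning, and Egr3 is required for muscle spindle development. Nab1 and Nab2 proteins bind Egr1, Egr2 and Egr3 and repress transcription, and Nab2 is itself induced by Egr proteins, so that it closes a negative feedback loop.

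The windows around RefSeq transcript starts (GRCm38.p6, 250 bases before to 50 after) are shown for 4 of the 6 genes, Egr2, Egr4, Nab1 and Nab2. The letters before the starts of Egr and Nab genes can thus be set side by side. Windows of Egr1 and Egr3 are not shown, and their motifs are not described here. Capitals mark matches on either strand to the motif of Egr proteins (GCGNGGGCG), to the CArG box that SRF binds, or to the core TGACG of the cAMP response element that CREB binds. Egr2 has 5 annotated starts, and the window printed, chr10:67537619-67537918 on the plus strand, was picked for its matches. Of the 5 windows, 4 hold a CArG box, 3 of them with TGACG as well, and 1, at the upstream end of the gene, holds none of the motifs. The 3 windows with TGACG overlap one another and hold the same CArG box and the same TGACG cores. They are thus 1 stretch of DNA and not separate sites. The remaining window with a CArG box holds a different one. The Egr4 window is chr6:85513540-85513839, the Nab1 window chr1:52500399-52500698 and the Nab2 window chr10:127666654-127666953, all on the minus strand.
Egr2: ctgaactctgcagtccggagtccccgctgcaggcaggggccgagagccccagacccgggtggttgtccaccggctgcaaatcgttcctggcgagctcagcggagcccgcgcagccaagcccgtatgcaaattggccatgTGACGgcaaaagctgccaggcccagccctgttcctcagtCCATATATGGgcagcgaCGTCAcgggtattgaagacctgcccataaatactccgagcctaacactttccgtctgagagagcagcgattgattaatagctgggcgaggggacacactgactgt
Egr4: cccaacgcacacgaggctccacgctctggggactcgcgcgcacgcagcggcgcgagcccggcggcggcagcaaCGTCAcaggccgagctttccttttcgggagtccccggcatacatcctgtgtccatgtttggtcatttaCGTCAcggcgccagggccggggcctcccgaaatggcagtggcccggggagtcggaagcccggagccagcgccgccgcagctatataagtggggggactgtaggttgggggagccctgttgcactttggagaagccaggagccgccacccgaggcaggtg
Nab1: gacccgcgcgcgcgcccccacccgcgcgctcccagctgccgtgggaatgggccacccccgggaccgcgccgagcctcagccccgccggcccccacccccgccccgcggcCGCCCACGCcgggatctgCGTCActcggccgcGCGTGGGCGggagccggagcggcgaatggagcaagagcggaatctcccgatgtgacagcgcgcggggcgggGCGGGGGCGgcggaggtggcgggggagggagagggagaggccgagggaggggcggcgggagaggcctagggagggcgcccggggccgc
Nab2: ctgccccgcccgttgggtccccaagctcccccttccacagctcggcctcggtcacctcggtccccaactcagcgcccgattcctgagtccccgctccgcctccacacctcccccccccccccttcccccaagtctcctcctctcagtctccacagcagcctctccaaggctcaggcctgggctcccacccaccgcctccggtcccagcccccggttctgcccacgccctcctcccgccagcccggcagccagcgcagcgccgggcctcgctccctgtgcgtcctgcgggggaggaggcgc
The Egr2 window holds 1 CArG box, 72 to 63 bases before the start, and 2 TGACG cores. The Egr4 window holds 2 TGACG cores and no CArG box, and the Nab1 window 3 Egr motifs and 1 TGACG core. No match was found in the Nab2 window. Among 32544 mouse promoter windows of this length, 5.6% hold the Egr motif, 1.64% a CArG box and 20.9% TGACG. The choice of the Egr2 window for its matches means that it cannot be read against these shares. The matches describe the letters of the windows and were not measured as binding sites.

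The libraries matched their labelled region. In NAc against PFC, 8 of 8 striatal projection neuron markers were higher and 6 of 6 cortical projection neuron markers lower (limma adjusted p under 0.05). Some libraries carried markers of neighbouring tissue. The median log2 level of choroid plexus markers exceeded the median of its region by more than 1.5 in PFC ZT13 CJL replicate 1, PFC ZT13 Ctrl replicate 1 and NAc ZT13 Ctrl replicate 3, olfactory bulb markers in PFC ZT1 CJL replicate 2 and PFC ZT1 Ctrl replicate 1, and thalamus and hypothalamus markers in NAc ZT13 CJL replicate 3. The limma fits were recomputed without these 6 libraries. The shares, exact permutation tests and correlations were not.

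Egr3 was highest in the PFC of Ctrl mice at ZT1, where the level differed from that of CJL mice in the opposite direction to ZT13. At ZT13 it measured 50.8, 56.6 and 48.1 FPKM in the PFC of CJL mice, against 31.7, 25.8 and 34.0 FPKM in Ctrl mice. At ZT1 it measured 44.6, 37.4 and 42.5 FPKM in CJL mice, against 81.3, 83.3 and 83.4 FPKM in Ctrl mice. All CJL libraries lay above all Ctrl libraries at ZT13 and below all of them at ZT1. On the scale of log2(FPKM + 0.1), CJL minus Ctrl was 0.77 at ZT13 and -0.996 at ZT1, and the first exceeded the second by 1.76. Within Ctrl mice, ZT13 minus ZT1 was -1.44, and within CJL mice 0.32. These comparisons share their groups pairwise and are not independent of each other. In bulk tissue, fewer cells of a type and less RNA per cell cannot be told apart.

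**Figure D1:**
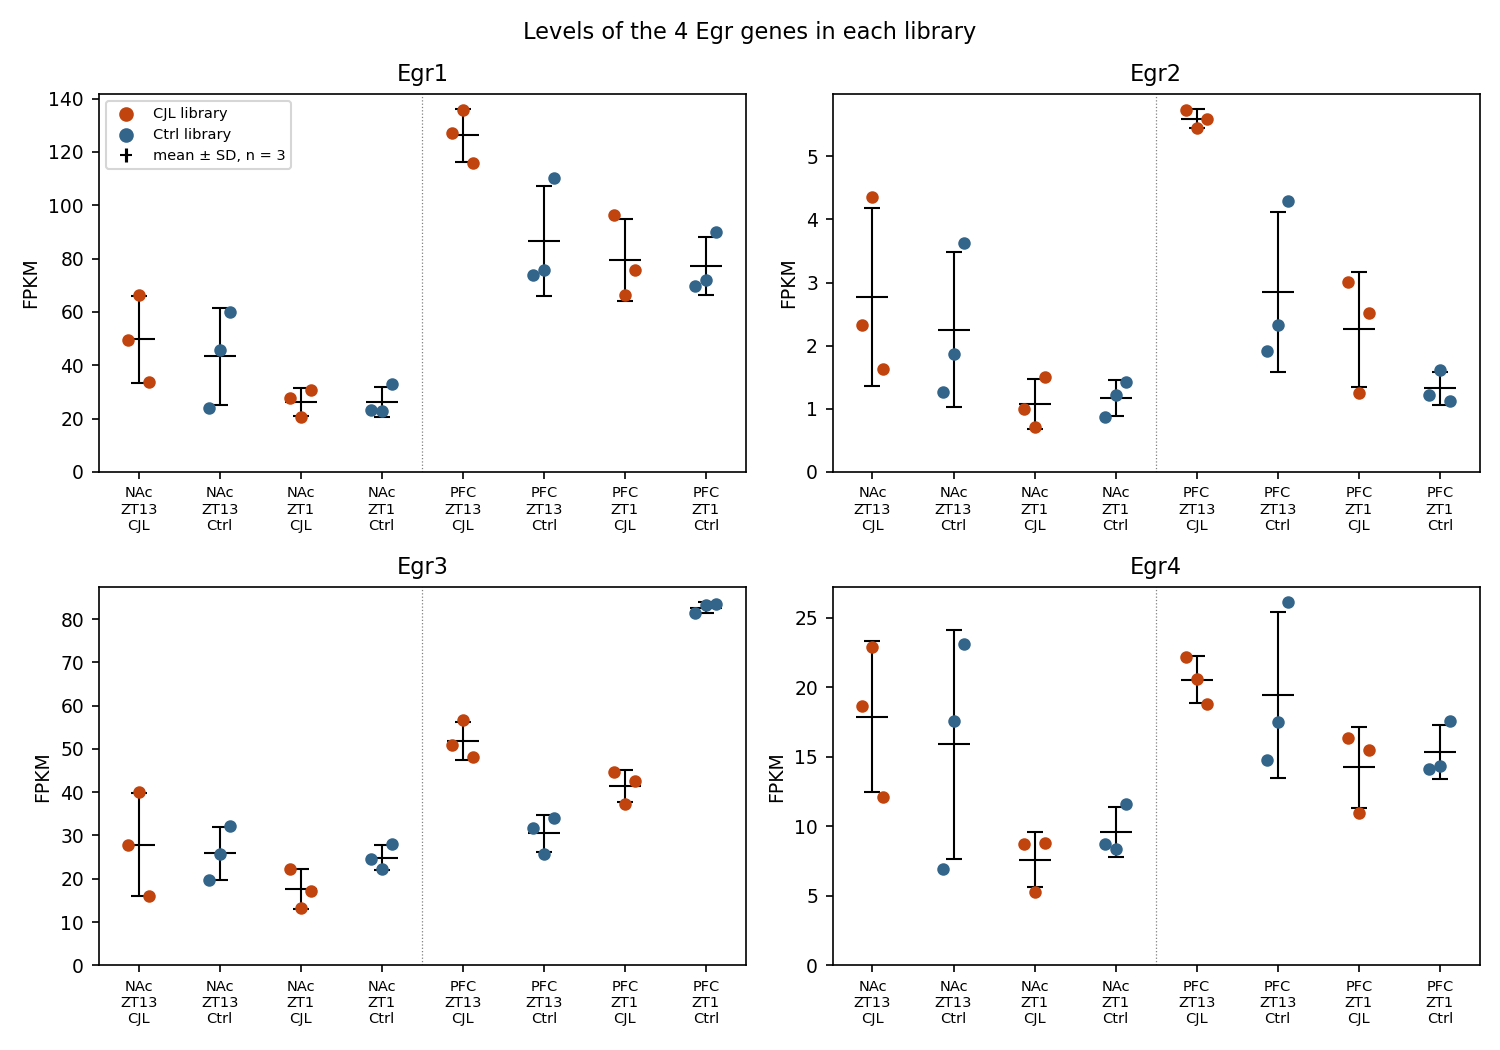
FPKM of Egr1, Egr2, Egr3 and Egr4 in each library (points), with the mean ± SD of 3 libraries, for the 8 groups of region, time and lighting. The 3 PFC ZT1 Ctrl libraries have the highest Egr3, at 81.3 to 83.4 FPKM, but not the highest Egr1, Egr2 or Egr4.

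By mean level, Egr3 ran in the order PFC ZT1 Ctrl (82.7 ± 1.19 FPKM), PFC ZT13 CJL (51.8 ± 4.36), PFC ZT1 CJL (41.5 ± 3.73) and PFC ZT13 Ctrl (30.5 ± 4.23), followed by NAc ZT13 CJL (27.9 ± 12.0), NAc ZT13 Ctrl (25.9 ± 6.18), NAc ZT1 Ctrl (24.9 ± 2.89) and NAc ZT1 CJL (17.6 ± 4.596; mean ± SD, n = 3). The first 4 groups did not overlap one another. From PFC ZT13 Ctrl on, each group overlapped with the next. The highest Egr3 level in any NAc library, 40.0 FPKM, was below the lowest of PFC ZT1 Ctrl and lay within the range of PFC ZT1 CJL.

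Other genes set the same PFC libraries apart. The mitochondrially encoded ATP synthase subunit mt-Atp6 measured 4605 to 7863 FPKM in the PFC ZT1 Ctrl libraries, against 672 to 874 FPKM in the other 9 PFC libraries. Krcc1, which encodes a lysine-rich coiled-coil protein, measured 7.18 to 7.76 FPKM in PFC ZT13 CJL and 7.64 to 8.12 in PFC ZT1 Ctrl, against 2.44 to 2.89 FPKM in the other 6 PFC libraries. The groups high in Krcc1 are the pair with the highest Egr3. Both genes were chosen after their values were seen, and their part in the Egr3 levels was not tested. In NAc, mt-Atp6 reached 4864 FPKM in ZT1 CJL replicate 3, 6254 in ZT13 Ctrl replicate 1 and 6711 in ZT1 Ctrl replicate 1. Egr3 measured 17.2, 19.8 and 24.6 FPKM in those libraries, each inside the range of the other NAc libraries. Its share of the summed FPKM of the 4 Egr genes was 29.6%, 37.95% and 42.9% there. In the other libraries of these groups it was 37.3% and 33.3%, 28.3% and 27.0%, and 40.7% and 37.8%. Egr3 was the most abundant Egr gene in 3 libraries, NAc ZT1 Ctrl replicate 1 and PFC ZT1 Ctrl replicates 1 and 2. All 3 had high mt-Atp6, and a relation was not tested.

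Leaving out the libraries with high markers of neighbouring tissue gave log2 differences of Egr3 of the same direction in all 4 PFC comparisons. Over all alternatives they were 0.65 to 0.85 for CJL against Ctrl at ZT13, -1.10 to -0.92 at ZT1, 0.25 to 0.38 for ZT13 against ZT1 in CJL mice and -1.55 to -1.33 in Ctrl mice.

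In NAc, where Egr3 was tested, no difference between CJL and Ctrl mice passed the test at either time. At ZT13 it measured 27.7, 40.0 and 16.0 FPKM in CJL mice, against 19.8, 25.8 and 32.1 FPKM in Ctrl mice. The CJL libraries spanned those of Ctrl, and the log2 fold change was 0.04 (SE 0.30, limma adjusted p = 0.98). At ZT1 Egr3 measured 22.4, 13.2 and 17.2 FPKM in CJL mice, against 24.6, 22.2 and 28.0 FPKM in Ctrl mice. The groups overlapped only between the highest CJL and the lowest Ctrl library, and the log2 fold change was -0.53 (SE 0.30, limma adjusted p = 0.694). The sum of 10 thalamus and hypothalamus markers was 98.0 to 440 FPKM in NAc ZT1 CJL, against 53.8 to 106 FPKM in NAc ZT1 Ctrl, and that of 6 ependymal markers 29.1 to 41.9 FPKM in CJL, against 9.95 to 21.8 FPKM in Ctrl, where 5 of the 6 were higher in CJL at an unadjusted p under 0.05. The sum of 8 striatal projection neuron markers was 539 to 1270 FPKM in CJL, against 1144 to 1329 FPKM in Ctrl, with 2 lower at an unadjusted p under 0.05 and a median log2 fold change of -0.68, and it was lowest in the 2 CJL libraries with the lowest Egr3. None of these markers was at 0 in either group, and their part in the difference was not tested. The CJL effect at ZT13 exceeded that at ZT1 by 0.56 in NAc (SE 0.42, limma adjusted p = 0.837). Whether it differs from the corresponding PFC value was not tested. None of the 15573 genes tested in NAc passed an adjusted p of 0.05 in these comparisons (background 0%). At an unadjusted p under 0.05 stood 0 of 6 members at both times and 0 for the difference between the times, beside 8.32% of all genes at ZT13, 7.71% at ZT1 and 6.47% for the difference. Of the genes at that level 63.8% were higher in CJL mice at ZT13 and 65.5% at ZT1, but 48.7% and 48.9% with median-of-ratios scaling. The NAc libraries with high markers of neighbouring tissue are ZT13 CJL replicate 3 and ZT13 Ctrl replicate 3. Without them the log2 fold change of Egr3 at ZT13 was 0.56 and the difference between the times 1.08 (limma adjusted p = 0.986 and 0.841). At an unadjusted p under 0.05 then stood 3 of 6 members at ZT13 (Egr1, Egr2 and Egr4), 1 at ZT1 (Egr3) and 2 for the difference (Egr3 and Egr4). The share of all genes at that level was not computed for this fit, so these counts have no background. In each Egr gene, the library left out was the lowest of its group in CJL and the highest in Ctrl. Their omission by itself thus raises CJL minus Ctrl at ZT13. No ZT1 library was left out, so the Egr3 log2 fold change there stayed at -0.53 and only the estimated spread changed.

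Egr1, the most abundant of the family by FPKM in 21 of the 24 libraries, followed a different order in PFC. At ZT13 it measured 127, 136 and 116 FPKM in the PFC of CJL mice, against 73.7, 75.9 and 110 FPKM in Ctrl mice, without overlap. The log2 fold change was 0.56 (SE 0.17) and did not pass the adjusted test (limma adjusted p = 0.301). Of the 14914 genes tested there, 0.0201% passed, and 0 of the 5 members tested. At an unadjusted p under 0.05 stood 2 members, Egr1 and Egr2, and 12.6% of all genes, of which 45.3% were higher in CJL mice (56.3% with median-of-ratios scaling). Without the libraries with high markers of neighbouring tissue, 1 of the 5 members stood there, and the share of all genes was not computed for that fit. At ZT1 Egr1 measured 96.3, 66.3 and 75.9 FPKM in CJL mice, against 69.8, 72.1 and 89.8 FPKM in Ctrl mice, and the CJL libraries spanned those of Ctrl (limma adjusted p = 0.934). Thus in the PFC ZT1 comparison, in which CJL mice had lower Egr3 in every library, Egr1 overlapped fully between the groups. For Egr1 in PFC, the CJL effect at ZT13 exceeded that at ZT1 by 0.53 (SE 0.24, limma adjusted p = 0.267), and this contrast called 0.0805% of all genes (0.0268% higher and 0.0536% lower).

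Egr2, the least abundant paralog, was higher in CJL than in Ctrl mice at ZT13 in every PFC library, without passing the adjusted test. It measured 5.74, 5.45 and 5.60 FPKM in CJL mice, against 1.92, 2.33 and 4.29 FPKM in Ctrl mice (log2 fold change 1.03, SE 0.32, limma adjusted p = 0.301). At ZT1 it measured 3.01, 1.25 and 2.51 FPKM in CJL mice, against 1.22, 1.62 and 1.13 FPKM in Ctrl mice, and the groups overlapped (limma adjusted p = 0.264).

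Egr4, the fourth paralog, which is induced by neuronal activity like the others, overlapped between CJL and Ctrl mice in PFC at both times. It averaged 20.5 ± 1.69 FPKM in CJL and 19.5 ± 5.96 FPKM in Ctrl mice at ZT13, and 14.3 ± 2.91 FPKM in CJL and 15.3 ± 1.92 FPKM in Ctrl mice at ZT1 (mean ± SD, n = 3; limma adjusted p = 0.829 and 0.778). In NAc, Egr1, Egr2 and Egr4 overlapped between CJL and Ctrl mice at both times, with limma adjusted p values of 0.85 to 0.857 at ZT13 and 0.849 to 0.999 at ZT1. At ZT13 the log2 fold changes were 0.24 for Egr1, 0.30 for Egr2 and 0.29 for Egr4. Without the NAc libraries with high markers of neighbouring tissue they were 0.78, 1.01 and 0.90 (limma adjusted p = 0.986 for each). The libraries left out were the lowest of CJL and the highest of Ctrl in each of these genes.

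In CJL mice, Egr1, Egr2 and Egr4 had higher mean levels at ZT13 than at ZT1 in both regions, although 0 members passed the adjusted test. Their means were also higher at ZT13 in Ctrl mice in both regions, as given below. The share of all genes whose groups do not overlap was not computed for any comparison, so absence of overlap is given as a description only. In PFC of CJL mice, all ZT13 libraries lay above all ZT1 libraries for Egr1 (log2 fold change 0.68, SE 0.17, limma adjusted p = 0.428), Egr2 (1.36, SE 0.32, adjusted p = 0.402) and Egr4 (0.54, SE 0.20, adjusted p = 0.643). In that comparison 0.0335% of all genes were called. At an unadjusted p under 0.05 stood 4 of the 5 members tested, all but Nab1, and 6.88% of all genes. Without PFC ZT13 CJL replicate 1 and PFC ZT1 CJL replicate 2, the libraries with high choroid plexus and olfactory bulb markers, 2 of 5 stood there (Egr1 and Egr2), and the log2 fold changes were 0.55 for Egr1, 0.98 for Egr2 and 0.31 for Egr4 (limma adjusted p = 0.967 for each). The share of all genes at an unadjusted p under 0.05 was not computed without them. In NAc of CJL mice, Egr1 measured 49.5, 66.3 and 33.6 FPKM at ZT13, against 27.9, 20.4 and 30.7 FPKM at ZT1 (log2 fold change 0.88, SE 0.32, limma adjusted p = 0.938). Egr2 measured 2.33, 4.35 and 1.62 FPKM at ZT13, against 1.00, 0.716 and 1.498 FPKM at ZT1 (1.23, SE 0.42, limma adjusted p = 0.918). Egr4 measured 18.6, 22.9 and 12.1 FPKM at ZT13, against 8.73, 5.30 and 8.77 FPKM at ZT1 (1.21, SE 0.39, limma adjusted p = 0.918). The groups of all 3 genes did not overlap, NAc ZT13 CJL replicate 3 being the closest to ZT1. That replicate is the NAc library with high thalamus and hypothalamus markers by their median log2 level, and without it the log2 fold changes were 1.14, 1.54 and 1.47. No NAc ZT1 CJL library was left out. The summed thalamus and hypothalamus markers were 98.0 to 440 FPKM there (median 426), against 92.5 to 467 FPKM in NAc ZT13 CJL (median 155). The omission was thus made on 1 side only. In NAc of CJL mice, 0 genes were called by limma, with 4 of 6 members (those 3 and Nab2) and 5.21% of all genes at an unadjusted p under 0.05. That count of members was 5 without ZT13 CJL replicate 3, and 1 without ZT13 CJL replicate 2 or without ZT1 CJL replicate 2. For these fits the share of all genes was not computed. With all libraries, the Egr3 groups overlapped in NAc of CJL mice (0.60, SE 0.30, limma adjusted p = 0.94).

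In Ctrl mice the paralogs differed in direction in PFC. Egr3 was lower at ZT13 than at ZT1 in every library, as given above, while Egr2 was higher at ZT13 in every library (log2 fold change 0.98, SE 0.32, limma adjusted p = 0.064). Egr1 and Egr4 had higher means at ZT13 (log2 fold change 0.15 and 0.31) but overlapped with ZT1 (limma adjusted p = 0.582 and 0.317). PFC ZT13 Ctrl replicate 1, the library with high choroid plexus markers, decided the call of Egr2. Without it the log2 fold change was 1.21 and the adjusted p 0.0328, within a range of 0.0328 to 0.228 over all alternatives. Without PFC ZT13 Ctrl replicate 3, the highest in Egr2 of its group, the log2 fold change was 0.65 (adjusted p = 0.228). In NAc of Ctrl mice, Egr3 measured 19.8, 25.8 and 32.1 FPKM at ZT13, against 24.6, 22.2 and 28.0 FPKM at ZT1, and these groups overlapped (0.03, SE 0.30, limma adjusted p = 0.98). Egr1, Egr2 and Egr4 had higher means at ZT13 there and overlapped with ZT1 (limma adjusted p = 0.532 to 0.643). There, 0 genes were called, with 0 of 6 members and 10.1% of all genes at an unadjusted p under 0.05. Without NAc ZT13 Ctrl replicate 1, the lowest of its group in these genes, 3 members stood there, Egr1 (log2 fold change 1.02, against 0.64 with it), Egr2 (1.11, against 0.78) and Egr4 (1.08, against 0.57), at limma adjusted p of 0.124 to 0.24. The share of all genes at an unadjusted p under 0.05 was not computed for that fit. That library had mt-Atp6 at 6254 FPKM, against 785 and 755 FPKM in the others of its group. Cortical projection neuron markers differed with time over all libraries of NAc of Ctrl mice, their sum being 141 to 187 FPKM at ZT13, against 37.0 to 80.6 FPKM at ZT1. Of these 6 markers, 5 were higher at an unadjusted p under 0.05, with a median log2 fold change of 1.62. None was at 0 in either group, and their part was not tested.

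**Figure D2:**
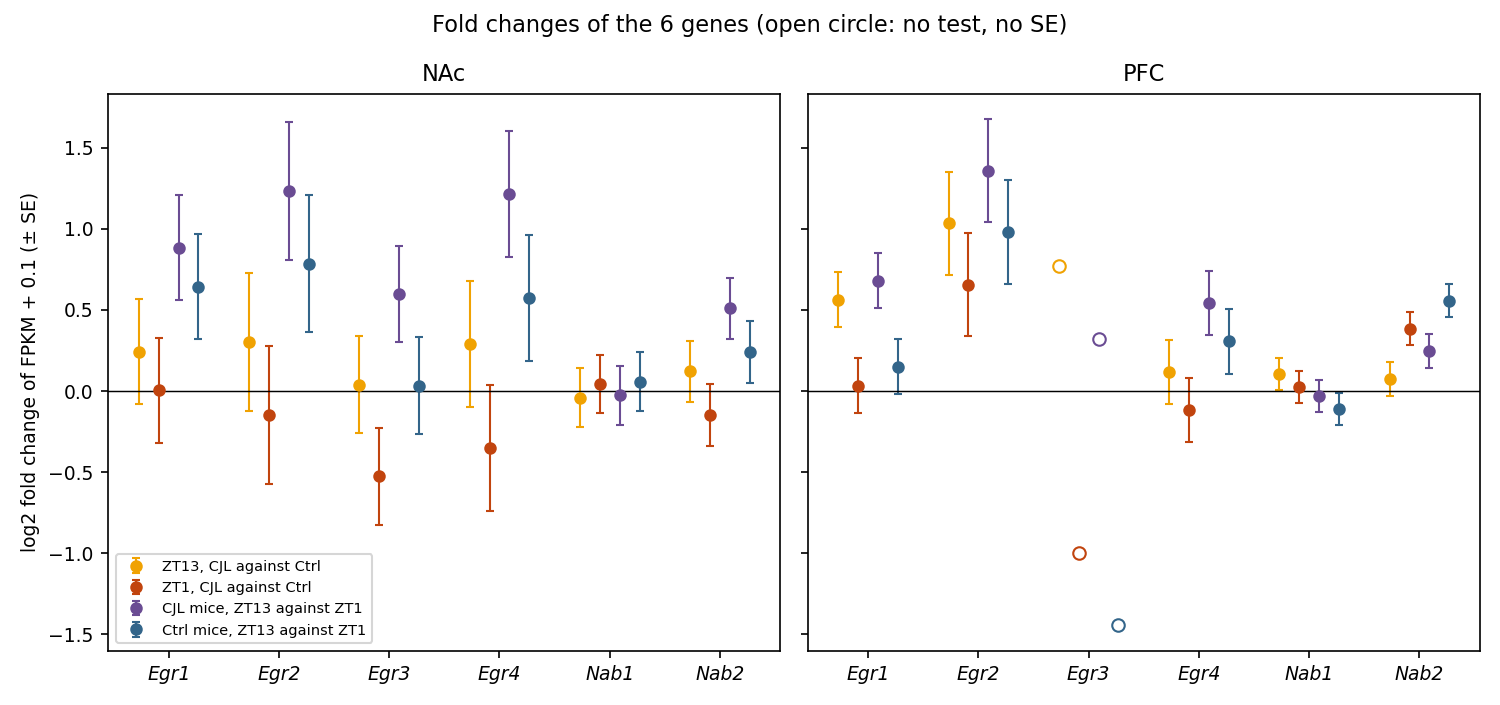
Log2 fold changes with their SE for the 6 genes in the 4 comparisons of each region; open circles are the Egr3 values in PFC, which have no test and no SE. Egr3 in PFC lies at 0.77 for CJL against Ctrl at ZT13 and at -0.996 at ZT1, while the corresponding values of Egr1 are 0.56 and 0.03.

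The share of each paralog in the summed FPKM of the 4 Egr genes compares them within a library, so that the scaling of the library cancels. In PFC at ZT1, Egr3 made up 27.8%, 32.2% and 31.2% of the sum in CJL mice, against 48.8%, 48.6% and 43.5% in Ctrl mice. At ZT13 its share was 24.7%, 25.9% and 25.5% in CJL mice, against 25.99%, 21.2% and 19.4% in Ctrl mice, and the groups overlapped. At ZT13 Egr1 was thus higher along with Egr3, and at ZT1 it was not lower along with it. In NAc at ZT1, the share was 37.3%, 33.3% and 29.6% in CJL mice, against 42.9%, 40.7% and 37.8% in Ctrl mice, without overlap. The mean difference was -7.07 percentage points (exact permutation test over libraries, two-sided, p = 0.1, the smallest p that 3 against 3 libraries allow). At ZT13 in NAc it was 27.8% ± 2.36 in CJL and 31.1% ± 5.97 in Ctrl mice (SD, n = 3; exact permutation p = 0.5).

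**Figure D3:**
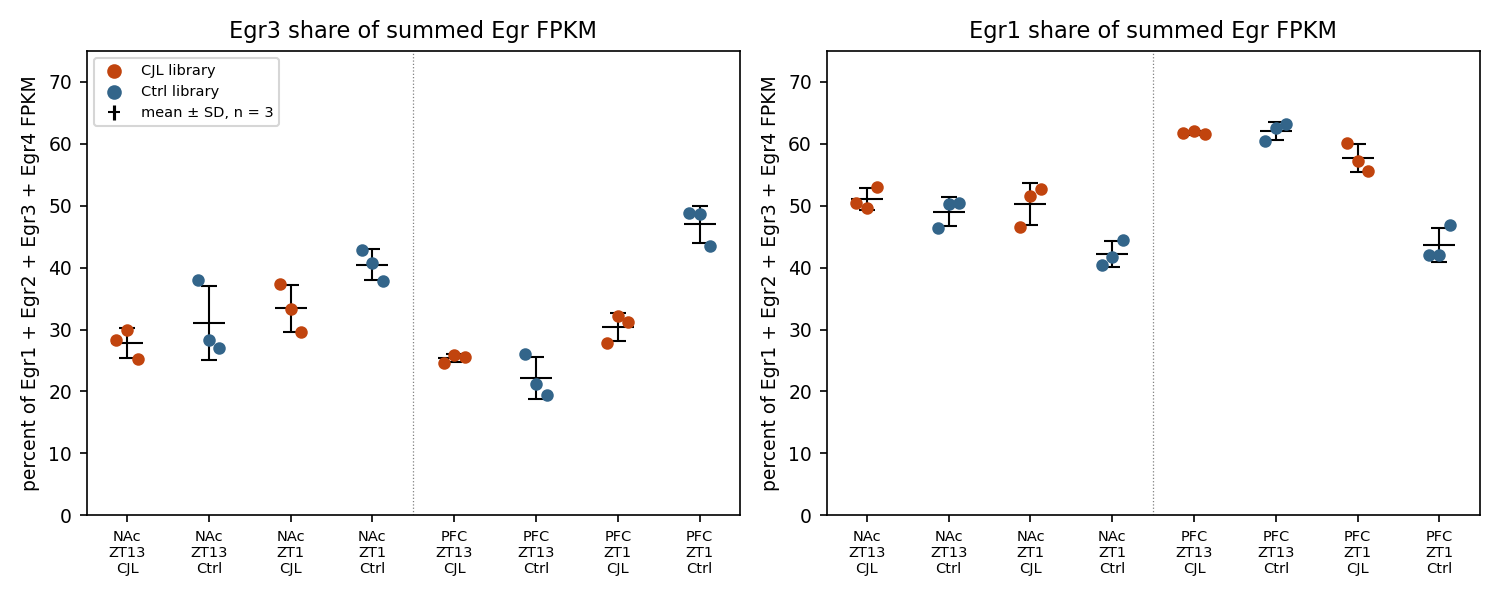
Share of Egr3 (left) and Egr1 (right) in the summed FPKM of Egr1, Egr2, Egr3 and Egr4, in percent, by library, with mean ± SD of 3. In both regions the ZT1 Ctrl libraries have the highest mean Egr3 share, 40.5% in NAc and 47.0% in PFC, and the lowest mean Egr1 share.

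Nab2 was the only member called for ZT13 against ZT1, in PFC of Ctrl mice, where its level was higher at ZT13. It measured 14.9, 16.4 and 18.9 FPKM at ZT13, against 12.6, 10.6 and 10.8 FPKM at ZT1, without overlap (log2 fold change 0.56, SE 0.10, limma adjusted p = 0.0118). This was 1 of 5 members tested, in a comparison that called 12.3% of all genes, so the members' share is near the background. At an unadjusted p under 0.05 stood 2 members, Nab2 and Egr2, and 30.6% of all genes. Of the genes at that level 67.7% were higher at ZT13, but 49.1% with median-of-ratios scaling. The adjusted p was 0.00484 to 0.0566 over the alternatives, the highest of them with the 2 groups fitted alone. Without the libraries with high markers of neighbouring tissue the log2 fold change was 0.71 (adjusted p = 0.00948), and with the correction for GC content and length it was 0.37 (adjusted p = 0.0309). The summed choroid plexus markers were 21.9 to 615 FPKM in PFC ZT13 Ctrl, against 2.65 to 12.0 FPKM in PFC ZT1 Ctrl. Among markers of other cells, 2 of 6 interneuron markers (Pvalb, Npy) and 1 of 6 microglial markers (Tmem119) were called higher, and of 6 endothelial markers 1 (Ly6c1) higher and 2 (Cldn5, Flt1) lower. Summed, interneuron markers were 508 to 585 FPKM at ZT13, against 446 to 515 FPKM at ZT1, microglial markers 87.5 to 96.5, against 82.3 to 92.1 FPKM, and endothelial markers 89.3 to 107, against 86.9 to 92.4 FPKM. No marker of these 3 lists was at 0 in either group, and their part in the result was not tested. The PFC ZT1 Ctrl libraries are also those with mt-Atp6 at 4605 to 7863 FPKM, against 672 to 874 FPKM in the other 9 PFC libraries. Whether what sets them apart has a part in the call of Nab2 was not tested.

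In the PFC at ZT1, Nab2 measured 14.9, 14.0 and 15.4 FPKM in CJL mice, against 12.6, 10.6 and 10.8 FPKM in Ctrl mice. The groups did not overlap, but the log2 fold change of 0.38 did not pass the adjusted test (SE 0.10, limma adjusted p = 0.0766; 0.0508 to 0.19 over the alternatives). There, 0 of the 5 members tested were called, and 1.59% of all genes. At an unadjusted p under 0.05 stood 1 member, Nab2, and 21.2% of all genes, of which 65.2% were higher in CJL mice (49.7% with median-of-ratios scaling). Both comparisons share the PFC ZT1 Ctrl libraries, in which Nab2 was lowest of the PFC groups and Egr3 highest. At ZT13 in PFC, Nab2 averaged 17.6 ± 1.60 FPKM in CJL and 16.7 ± 2.01 FPKM in Ctrl mice (limma adjusted p = 0.789). In CJL mice Nab2 had log2 fold changes of 0.25 at ZT13 against ZT1 in PFC (SE 0.10, limma adjusted p = 0.68, no overlap) and 0.51 in NAc (SE 0.19, adjusted p = 0.938, overlapping). In NAc of Ctrl mice, Nab2 measured 12.4, 12.3 and 13.7 FPKM at ZT13, against 11.0, 10.1 and 11.3 FPKM at ZT1. These groups did not overlap either (0.24, SE 0.19, limma adjusted p = 0.693).

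Nab2 overlaps 3 genes on the opposite strand in GENCODE M21: Stat6 by 40 bases, the antisense gene Gm16229 by 1050 exonic bases and Nemp1 (Tmem194 in the files) by 151 exonic bases. Whether the reads were assigned by strand is not given in the sources used here, so reads of Nab2 and of these genes may not be told apart. In PFC, Gm16229 averaged 0.255 ± 0.196 FPKM in ZT13 Ctrl and 0.212 ± 0.225 FPKM in ZT1 Ctrl mice, Tmem194 2.38 ± 0.65 FPKM in ZT13 Ctrl and 2.47 ± 0.0584 FPKM in ZT1 Ctrl mice, and Stat6 5.46 ± 1.39 FPKM in ZT13 Ctrl and 4.80 ± 0.211 FPKM in ZT1 Ctrl mice (mean ± SD, n = 3).

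Over the 12 libraries of a region, Nab1 had the smallest ratio of highest to lowest level of the members, 1.35 in PFC and 1.65 in NAc. Within the NAc Ctrl groups it varied more than Nab2. The SD there was 27.9% of the mean for Nab1 and 6.14% for Nab2 at ZT13, and 17.8% and 6.05% at ZT1. Nab1 levels ran from 4.94 to 6.66 FPKM over the 12 PFC libraries and from 6.04 to 9.97 FPKM over the 12 NAc libraries, and Nab1 was called in no comparison of time or lighting (limma adjusted p = 0.483 to 0.995). The ratio of Nab2 to Nab1 sets the pair side by side within a library. In PFC it was 3.23, 2.83 and 2.67 in ZT13 CJL mice, against 2.28, 3.32 and 3.45 in ZT13 Ctrl mice. At ZT1 it was 2.56, 2.30 and 2.32 in CJL mice, against 2.04, 1.73 and 1.82 in Ctrl mice. The ZT1 groups did not overlap, nor did ZT13 and ZT1 within either lighting, and each of these 3 comparisons had the smallest p possible (exact permutation test, two-sided, p = 0.1). The ratio overlapped in all 4 NAc comparisons (exact permutation p = 0.2 to 0.6).

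**Figure D4:**
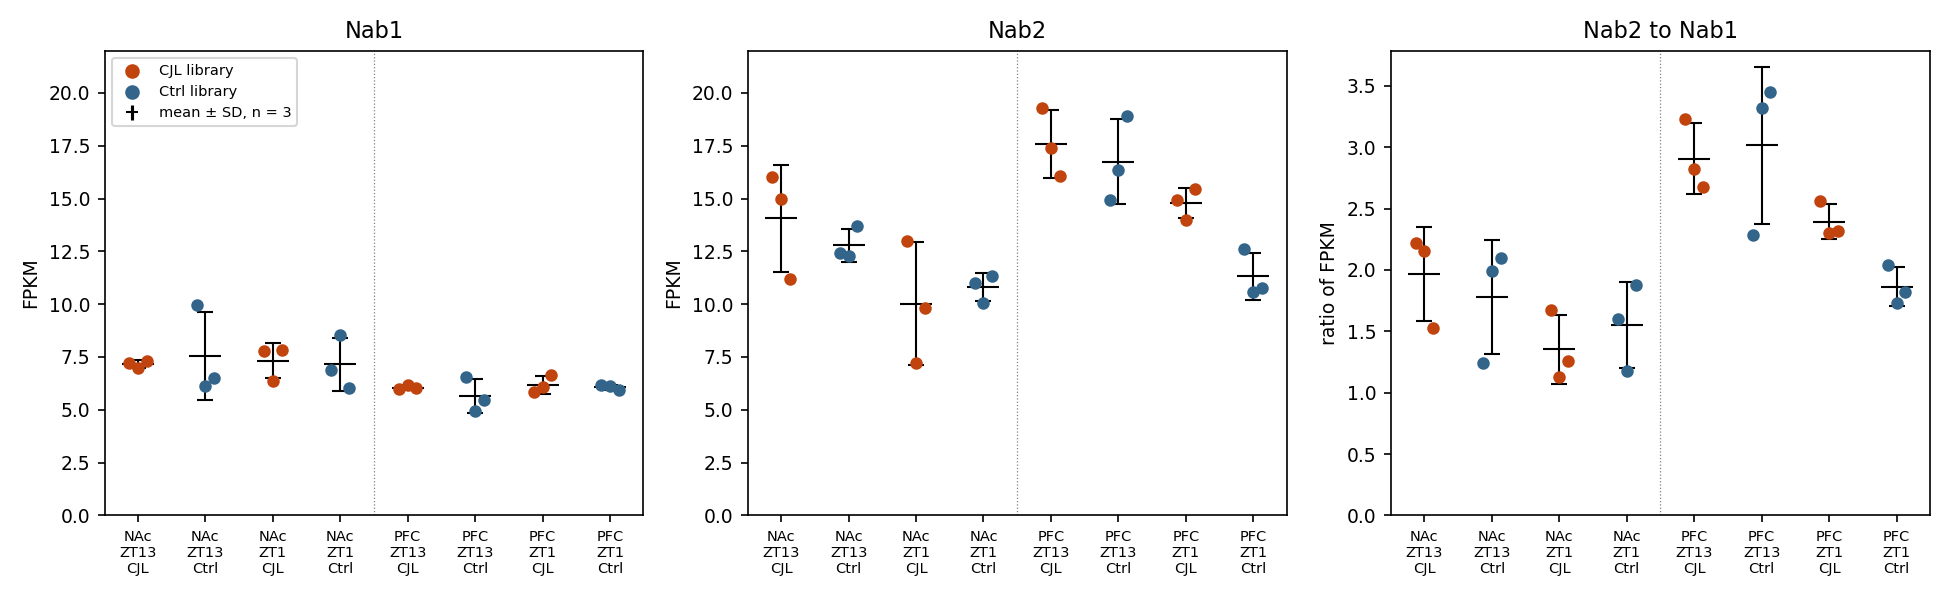
FPKM of Nab1 and Nab2 and the ratio of Nab2 to Nab1 in each library, with mean ± SD of 3. Nab1 stays between 4.94 and 9.97 FPKM in every library, while the PFC ZT1 Ctrl libraries have the lowest Nab2 of the PFC groups, with a mean of 11.3 FPKM.

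All 5 members tested differed between NAc and PFC, in a comparison in which 65.8% of all genes were called (44% higher and 21.7% lower in NAc) and 68.5% had an unadjusted p under 0.05. Of the genes at that level 66.6% were higher in NAc, but 51.1% with median-of-ratios scaling. Egr1 measured 20.4 to 66.25 FPKM in NAc (median 31.8), against 66.32 to 136 FPKM in PFC (median 82.9), without overlap (log2 fold change -1.41, SE 0.14, limma adjusted p = 2.81e-08). Egr2 measured 0.716 to 4.35 FPKM in NAc (median 1.46), against 1.13 to 5.74 FPKM in PFC (median 2.42; log2 fold change -0.66, SE 0.20, limma adjusted p = 0.00648). Egr4 measured 5.30 to 23.1 FPKM in NAc (median 10.2), against 10.9 to 26.2 FPKM in PFC (median 16.9; log2 fold change -0.56, SE 0.17, limma adjusted p = 0.00547). Nab2 measured 7.19 to 16.01 FPKM in NAc (median 11.8), against 10.6 to 19.3 FPKM in PFC (median 15.2; log2 fold change -0.34, SE 0.08, limma adjusted p = 0.000789). Nab1 alone was higher in NAc, at 6.04 to 9.97 FPKM (median 7.09), against 4.94 to 6.66 FPKM in PFC (median 6.05; log2 fold change 0.27, SE 0.08, limma adjusted p = 0.00358). The median of all genes was 0.12 in this comparison, and scaling the libraries moved it by up to -0.12. The call of Nab1 was lost with median-of-ratios scaling (0.16, limma adjusted p = 0.0856), quantile normalization (0.11, adjusted p = 0.203) and a correction for GC content and length (0.14, adjusted p = 0.0976), the range over all alternatives being 0.000858 to 0.203. The 24 libraries were fitted as independent, although each mouse gave both regions, because the labels do not say which libraries share a mouse. Egr3, described only, had a NAc minus PFC difference of -1.06 on the log2 scale, at 13.2 to 40.0 FPKM (median 23.5), against 25.8 to 83.4 FPKM in PFC (median 46.4). Markers of other cells differed with the region, 6 of 6 of oligodendrocytes and 5 of 6 of ependymal cells being higher in NAc and 6 of 6 of endothelial cells lower. Summed, oligodendrocyte markers were 1010 to 2521 FPKM in NAc, against 816 to 1258 FPKM in PFC, ependymal markers 9.95 to 43.2, against 5.54 to 11.0 FPKM, and endothelial markers 51.5 to 78.4, against 86.9 to 107 FPKM. None of these markers was at 0 in any group, and their part was not tested.

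Across the 12 libraries of a region, Egr1, Egr2, Egr4 and Nab2 had positive correlations in every pair. In NAc all these pairs, and those with Egr3, passed the test below. In PFC all but Egr1 with Nab2 did (r = 0.621, rho = 0.727, permutation p = 0.0328 and 0.00936, adjusted p = 0.0512 and 0.0206, and r = 0.451 without the 2 libraries farthest in Egr1). Of 25 pairs of members tested, 15 had an adjusted permutation p under 0.05 for Pearson's r (Benjamini-Hochberg over the pairs). In NAc, Egr1 and Egr4 had r = 0.971 and Spearman's rho = 0.972 (permutation p = 1e-05 for both, the smallest these can give, adjusted p = 8.33e-05 and 0.000125), and r = 0.953 without the 2 libraries farthest in Egr1. In PFC the same pair had r = 0.839 and rho = 0.93 (permutation p = 0.00033 and 6e-05, adjusted p = 0.00195 and 0.0005), and r = 0.824 without the 2 farthest. Egr2 and Nab2 had r = 0.825 and rho = 0.846 in PFC (permutation p = 0.00088 and 0.00099, adjusted p = 0.00367 and 0.00495) and r = 0.815 without the 2 farthest. These correlations hold differences between the groups as well as between mice. For the deviations of the libraries from their group means, r of Egr2 and Nab2 was 0.529 in PFC and 0.462 in NAc. That of Egr1 and Egr4 was 0.914 in PFC and 0.979 in NAc.

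Egr3 followed Egr1 in NAc with r = 0.754 and rho = 0.713 (permutation p = 0.00433 and 0.0117, adjusted p = 0.00902 and 0.0224), but with r = 0.52 without the 2 libraries farthest in Egr1, so that the relation rests in part on those libraries. In PFC, where the pair has no test, r was 0.0373 over all libraries, among which the PFC ZT1 Ctrl libraries lay apart. For the deviations of the libraries from their group means, r of Egr3 and Egr1 was 0.699 in PFC and 0.858 in NAc. Within groups, libraries higher in Egr1 thus tended to be higher in Egr3 in both regions.

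**Figure D5:**
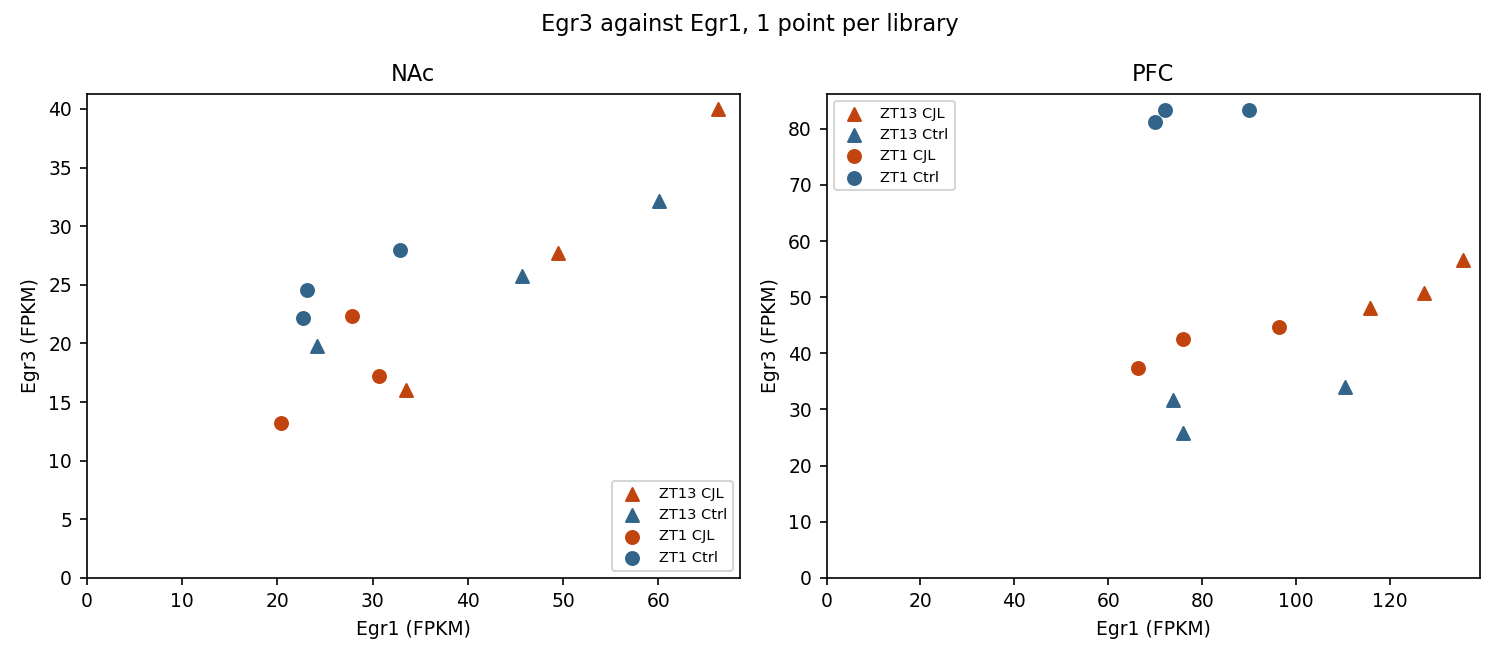
Egr3 against Egr1 FPKM, 1 point per library, with NAc on the left and PFC on the right. In PFC the 3 ZT1 Ctrl libraries lie at 81.3 to 83.4 FPKM of Egr3 with Egr1 of 69.8 to 89.8 FPKM, apart from the other 9.

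The genes whose levels were most like those of Egr3 differed between the regions. Over the 12 PFC libraries, the highest Pearson's r among 11141 genes with an established name were those of Rps6ka2 (0.934), a kinase downstream of ERK, Zmiz1 (0.928), a transcriptional coactivator, Spred3 (0.926), an inhibitor of the Ras and ERK pathway, Hivep1 (0.922), a zinc finger protein, and St8sia5 (0.92), a sialyltransferase. Like Egr3, Hivep1 was highest in PFC ZT1 Ctrl, at 16.8 to 19.8 FPKM, against 8.60 to 14.0 FPKM in the other 9 PFC libraries. In NAc, the most alike among 11482 genes were Fosb (0.938), an immediate early gene of the AP-1 family, Dact2 (0.908), Tesc (0.906), Jph4 (0.906) and Klf5 (0.904). For Egr1 they were Wipf2 (0.928), Midn (0.915) and Gadd45a (0.898) in PFC and Arl4d (0.945), Srf (0.938) and Zbtb2 (0.923) in NAc. These values describe 12 libraries that share groups, and carry no test.

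The surrounding pathways were followed with lists chosen with earlier results known. Of 32 activity-regulated genes tested in the PFC of Ctrl mice, 9 were higher and 4 (Homer1, Bdnf, Inhba and Nptx2) lower at ZT13 than at ZT1, with a median log2 fold change of 0.32 beside 0.06 over all genes. Of all genes tested, 8.8% were called higher and 3.54% lower. Dusp5, a phosphatase of ERK (log2 fold change 0.76, SE 0.10, limma adjusted p = 0.00462), was higher, and Homer1, a postsynaptic scaffold (-0.90, SE 0.15, limma adjusted p = 0.00922), was lower. Junb, a component of AP-1, was higher (1.21, SE 0.23, limma adjusted p = 0.0118). Of these genes, 1 (Dusp5, 0.48, SE 0.10, limma adjusted p = 0.0401) was higher and none lower in CJL than in Ctrl mice in PFC at ZT1, where 1.17% of all genes were called higher, and none was called at ZT13, where the median was 0.17 beside -0.03 over all genes. In NAc none was called in any comparison of time or lighting, with medians of 0.37 in CJL and 0.36 in Ctrl mice for ZT13 against ZT1, beside -0.004 and -0.013 over all genes.

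Of 18 genes that induce Egr transcription (the ERK cascade, SRF with its partners, CREB), 2 were higher and 3 (Rps6ka2, Creb1 and Mkl2) lower at ZT13 than at ZT1 in the PFC of Ctrl mice. Rps6ka2 was lower (-0.40, SE 0.07, limma adjusted p = 0.0103), and Elk4, a partner of SRF (0.27, SE 0.07, limma adjusted p = 0.0299), and Map2k2, the kinase MEK2 (0.34, SE 0.09, limma adjusted p = 0.039), were higher. Of 12 genes reported as targets of Egr proteins in neurons, Nab2 apart, 2 (Arc and Gadd45b) were higher and 2 lower. Htr2a, the serotonin receptor 2A (-1.06, SE 0.22, limma adjusted p = 0.0147), and the neurotrophin gene Bdnf (-0.57, SE 0.13, limma adjusted p = 0.0182) were lower. Arc, which is needed for synaptic plasticity, was higher (1.44, SE 0.39, limma adjusted p = 0.0372). Of 13 partners of Nab and Egr proteins in repression, chiefly the NuRD complex, 3 were higher and 0 lower, with Mbd3 at 0.47 (SE 0.10, limma adjusted p = 0.0141), Mta2 at 0.35 (SE 0.09, limma adjusted p = 0.025) and Rbbp4 at 0.29 (SE 0.08, limma adjusted p = 0.0347). The median of the 13 was 0.14 beside 0.06 over all genes. No gene of these 3 lists was called for CJL against Ctrl at either time in either region. In NAc against PFC, 25 of the 32 activity-regulated genes were lower and 3 (Gadd45g, Rgs2 and Sik1) higher, with a median of -0.70 beside 0.12 over all genes. Ier5 (-1.74, SE 0.09, limma adjusted p = 2.75e-12) and Dusp6 (-1.46, SE 0.09, limma adjusted p = 4.13e-11) were lower with Bdnf (-1.87, SE 0.13, limma adjusted p = 1.38e-10). Of the inducers 7 of 18 were higher and 5 (Crtc1, Elk1, Elk3, Elk4 and Srf) lower, of the targets 3 of 13 (Ngfr, Psme2 and Th) higher and 8 lower, and of the partners 7 of 13 higher and 1 (Mta1) lower. Of all genes, 44% were called higher and 21.7% lower in NAc. The calls of list genes were made in the reported fit only and were not repeated under the alternatives.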

How the data were processed

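Poly(A) RNA of PFC and NAc was sequenced as 24 libraries. The submitters' processing notes name FastQC 0.11.9, HISAT2, StringTie, DESeq2 and the mm10 build. The authors deposited FPKM of 48526 genes per library, scaled for depth and gene length. The tables used hold no counts, so counting error is not given and precision comes from the spread between mice. A further 8 deposited tables hold fold changes and p-values from the authors' own comparisons and were not used.

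From the FPKM, log2(FPKM + 0.1) was computed, genes reaching 1 FPKM in 3 or more fitted libraries were retained, and group means were estimated by limma 3.58.1 (R 4.3.3) using eBayes with trend, separately in the 12 libraries of each region (14914 genes in PFC, 15573 in NAc) or for all 24 (16072 genes). A count test could not be run on FPKM. Tests were two-sided, with Benjamini-Hochberg adjustment over all genes of a comparison and a threshold of 0.05. A fold change of FPKM + 0.1 understates that of low genes. Shares and ratios were compared by exact permutation and correlations by 100000 permutations. The limma fit was checked on simulated data.

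The members and lists were chosen with earlier results of these data known. The text names all 6 members, up to 3 genes of a list at an adjusted p under 0.05, genes overlapping a member, and the 5 and 3 genes most like Egr3 and Egr1. Of the list of repression partners, 1 gene is not reported here. The alternatives changed the pseudocount (1), the filter (none), the scaling (median-of-ratios or quantile), the fit (2 groups alone, or a replicate block) or the libraries (each left out, or the 6 with high markers of neighbouring tissue), or removed library deviations by 20 bins of GC content and of exonic length (GENCODE M21). Python 3.11.15, pandas 2.3.3, numpy 2.4.6, scipy 1.17.1 and matplotlib 3.10.9 were used.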

Additional observations from a re-analysis of the deposited data

Results flagged for a closer look

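The CJL effect on Egr3 in PFC went in opposite directions at the 2 times, with log2 fold changes of 0.768 at ZT13 and -0.996 at ZT1. All 3 CJL libraries lay above all 3 Ctrl libraries at ZT13 and below them at ZT1. The difference was not tested here, since these levels led to the choice of the family.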

How the results depend on the processing

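In the PFC of Ctrl mice at ZT13 against ZT1, 1 member was called, against 0 with the 2 groups fitted alone (Nab2 adjusted p = 0.0566 by limma), 2 without the libraries with high markers, and 1 to 2 when single libraries were omitted. The call added was Egr2 both times, the single library being PFC ZT13 Ctrl replicate 1. In NAc against PFC the members called were 5, and 4 under both scalings and the GC and length correction. The cause was not tested. Genes called over the whole table varied more, at 6 to 407 for CJL against Ctrl in PFC at ZT1, 1 to 242 at ZT13, 4 to 9 for time in CJL mice, 285 to 2848 in Ctrl mice and 4 to 796 for the difference. Read totals were not used here, and 3 mice per group limit what small differences can show.

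Of 66 member fold changes (log2), 24 changed direction under some alternative, 0 of them called. With median-of-ratios scaling, for CJL against Ctrl at ZT1, Nab1 was -0.014 and Egr1 -0.007 in PFC and Egr1 -0.031 in NAc. With quantile normalization Egr1 was -0.057 in PFC and -0.015 in NAc. With the GC and length correction, Nab1 was -0.066 and Egr1 -0.024 in PFC, Nab1 -0.003 and Egr1 -0.047 in NAc, and Nab1 0.009 for time in NAc of CJL mice. Without the libraries with high markers, CJL against Ctrl in PFC gave 0.004 for Egr4 at ZT1, and -0.073 for Nab2 and -0.117 for Egr4 at ZT13, the PFC difference gave -0.187 for Egr2 and -0.122 for Egr4, and time in NAc of Ctrl mice -0.135 for Egr3. Omitting single libraries gave these ranges. For CJL against Ctrl in PFC at ZT1, Nab1 was -0.027 to 0.067, Egr1 -0.114 to 0.155 and Egr4 -0.228 to 0.061. At ZT13 in PFC, Nab2 was -0.005 to 0.164 and Egr4 -0.06 to 0.351. For ZT13 against ZT1 in PFC of CJL mice, Nab1 was -0.072 to 0.022. In PFC of Ctrl mice, Egr1 was -0.037 to 0.263. For the PFC difference, Nab1 was -0.012 to 0.188. For CJL against Ctrl in NAc at ZT1, Nab1 was -0.069 to 0.177, Nab2 -0.355 to 0.068, Egr2 -0.398 to 0.087 and Egr1 -0.117 to 0.177. At ZT13 in NAc, Nab1 was -0.169 to 0.175, Egr3 -0.268 to 0.39, Egr2 -0.072 to 0.697, Egr1 -0.128 to 0.527 and Egr4 -0.219 to 0.64. For ZT13 against ZT1 in NAc of CJL mice, Nab1 was -0.122 to 0.024. In NAc of Ctrl mice, Nab1 was -0.157 to 0.192 and Egr3 -0.135 to 0.214. For the NAc difference, Nab1 was -0.217 to 0.132 and Egr1 -0.133 to 0.523.

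Same-numbered PFC and NAc libraries had correlated deviations of 0.0175 to 0.134 and differently numbered ones -0.15 to 0.109, so a pairing of the regions by number was neither shown nor excluded. In NAc against PFC, with same-numbered libraries of a time and lighting treated as 1 mouse, a replicate block chosen after seeing the data, 5 members were called, as without it (adjusted p = 4.72e-08 to 0.000858). With a replicate block, Nab2 in the PFC of Ctrl mice kept its call (adjusted p = 0.0232), and the number of members called was as reported in every comparison, while genes called over the whole table in PFC at ZT1 were 8, against 237 without the block.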
